A study of Mus musculus with 8 samples.

Results

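Nuclear receptors and the proteins they recruit to chromatin were followed at the RNA level in mouse liver. The set holds 32 genes, 21 receptors and 11 coregulators, taken by gene symbol from the 22946 rows of a deposited table of read counts. Each of the 32 symbols had a row of its own, and none stood in a row that joins several genes. The table covers 8 RNA-seq libraries in 4 groups of 2: livers labelled MLL4 het on a high fat diet (HFD), livers labelled MLL4 het on chow, wild-type livers on HFD and wild-type livers on chow. The mice were C57 Black, began their diet at the age of 8 weeks and stayed on it for 8 weeks. MLL4, encoded by Kmt2d, is a histone H3 lysine 4 methyltransferase of enhancers, and het means that one of its alleles was altered. The labels give neither the kind of allele nor the sex of the animals, and do not say whether a library came from 1 animal or from a pool. The study asked which transcripts HFD alters in wild-type livers and to a lesser degree in MLL4 het livers.

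Nuclear receptors are transcription factors that bind DNA mostly in pairs, often with a retinoid X receptor (RXR) as the partner, and many of them change activity when a hormone, vitamin or lipid fills their ligand pocket. Without an activating ligand several of them hold corepressors such as NCOR1. With it they recruit coactivators, among them the p160 proteins NCOA1, NCOA2 and NCOA3, the acetyltransferases CREBBP and EP300, the PGC-1 proteins and the Mediator subunit MED1. In liver these factors set the rates of fatty acid, cholesterol, bile acid and glucose metabolism. Much of that control acts on the protein and its ligand, which RNA counts do not show.

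Library totals lay between 14142884 and 18928676 counts, so that 3 counts equalled between 0.161 and 0.213 CPM, the read count scaled to a library total of 1000000 with the TMM factors. The hepatocyte gene Alb stood between 45577 and 61976 CPM in all libraries, which checks the tissue label. Kmt2d, listed under its older symbol Mll2, had 62.8 and 75.4 CPM in het-labelled HFD, 60.0 and 72.1 CPM in het-labelled chow, 63.3 and 64.7 CPM in wild-type HFD and 61.2 and 69.6 CPM in wild-type chow livers. Its log2 difference, het-labelled over wild-type, was 0.11 on HFD (95% interval -0.17 to 0.39; adjusted p = 0.760, edgeR) and 0.01 on chow (-0.27 to 0.30; adjusted p = 0.975). The RNA level therefore does not check the genotype labels, and the altered stretch of the gene is not given, so the livers are called het-labelled throughout. The libraries of a group differed by far more than counting noise (chi-square per degree of freedom between 15.5 and 16.8). Nothing states that they came from separate animals, so each p-value measures the spread between libraries, which may be technical.

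Levels between genes were compared per kilobase of exon, as CPM per kilobase. The length was that of all annotated exons of a gene, merged. Ranks and shares therefore depend on the annotation, and the length of the transcripts present was not measured. Rxra, the RXR form that pairs with most metabolic receptors of the hepatocyte, was the most abundant member, with a median of 61.8 CPM per kilobase over the 8 libraries. It was followed by Nr2f6, an orphan receptor of the COUP-TF family (24.0), by Ncoa4, a coactivator of the androgen receptor that also takes ferritin to autophagy (17.5), and by Nr3c1, the glucocorticoid receptor (11). The corepressor Ncor1 stood at 7.88 CPM per kilobase, close to Nr5a2 at 7.35 and Rxrb at 7.12, and the lowest-to-highest ranges of these 3 genes over the libraries overlapped. At the low end were Esr1, the estrogen receptor alpha, at 0.398 and Nr2f1 at 0.099 CPM per kilobase. Vdr, the vitamin D receptor, had 3 counts in all, 1 in each of 3 libraries, and was the single member that did not pass the filter on low counts. Its level is at the limit that counting can show, and it is left out of every test below, which leaves 31 members, 20 receptors and 11 coregulators.

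**Figure D1:**
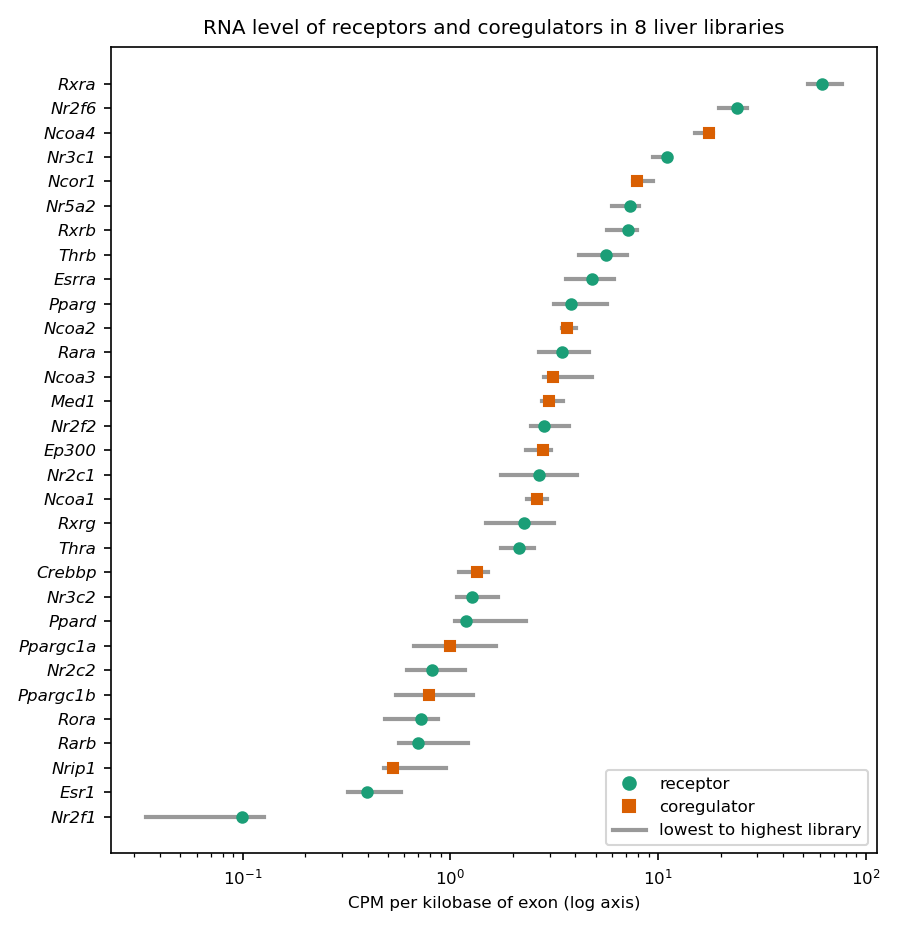
RNA level of 31 members in CPM per kilobase of exon on a log axis, in descending order. Points mark the median of 8 libraries, circles receptors and squares coregulators, and grey bars run from the lowest to the highest library; Rxra leads with 61.8 and Nr2f1 closes with 0.099.

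Within families 1 form usually dominated. Rxra made up between 84.0% and 91.4% of the summed RXR level per kilobase in a library, Nr2f6 between 86.2% and 90.2% of the COUP-TF level, Nr3c1 between 86.9% and 91.0% of the 2 corticoid receptors, and Rara between 78.5% and 85.6% of Rara and Rarb. Thrb, the form of the thyroid hormone receptor that predominates in liver, made up between 67.7% and 80.2% of both forms. The p160 coactivators were more even, with median shares of 27.3% for Ncoa1, 38.2% for Ncoa2 and 33.5% for Ncoa3. Ppargc1a and Ppargc1b, which encode PGC-1 alpha and PGC-1 beta, had no constant order per kilobase. The share of Ppargc1a ran from 36.2% in 1 het-labelled HFD library to 67.9% in 1 wild-type chow library. In CPM without regard to length, Ppargc1a was above Ppargc1b in every library but het-labelled HFD library 7. The labels do not say whether strand was kept, so reads of a partner gene on the other strand cannot be told apart from those of the member, and their part in the shares was not tested. Such a partner, in a mouse annotation of GRCm38, overlaps 54.4% of the exon length of Nr2f6 (Ocel1), 34.1% of that of Rarb (Top2b), 30.7% of that of Nr2c2 (Mrps25) and 5.70% of that of Thra (Nr1d1).

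The spread of each member was read as the ratio of its highest to its lowest library. In 24 of the 31 the highest library was under 2 times the lowest, and in 13 it was under 1.5 times. The same shares were not taken over all tested rows, so these counts do not set the members apart. The ratio of the highest to the lowest library was smallest for Ncoa2, at 1.16, and largest for Nr2f1, at 3.70, whose CPM lay between 0.174 and 0.644. The summed CPM of the receptors ranged from 706 to 855 and that of the coregulators from 456 to 518.

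HFD was first compared with chow over both genotypes, 4 libraries against 4, as the mean of the diet effects of the 2 genotypes. Of the 31 members, 4 were called at an adjusted p under 0.05 (edgeR, adjusted over 12593 rows): Esrra and Thrb were higher on HFD, and Nr2c1 and Nr2c2 were lower. All 4 are receptors, and 0 of 11 coregulators were called, with 2 of the 11 at an unadjusted p under 0.05 and 0 called by DESeq2. Among all tested rows 10.4% were called, so a share of 4 in 31 is near the background and says nothing particular of these genes. The median log2 change was 0.03 for the members and 0.01 for all rows. In bulk liver, fewer cells of a type and less RNA per cell cannot be told apart.

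Esrra encodes the estrogen-related receptor ERR alpha, an orphan receptor that drives genes of mitochondrial respiration and fatty acid oxidation together with the PGC-1 coactivators. Its level was 26.9 and 25.1 CPM in het-labelled HFD and 18.6 and 20.5 CPM in het-labelled chow livers, and 21.8 and 24.1 CPM in wild-type HFD and 17.5 and 15.8 CPM in wild-type chow livers. All 4 HFD libraries were above all 4 chow libraries. The ratio of HFD to chow was 1.35 (95% interval 1.20 to 1.53), a log2 change of 0.44 ± 0.08 (SE; adjusted p = 0.0102, edgeR). The log2 change was 0.41 in het-labelled livers (adjusted p = 0.0930) and 0.46 in wild-type livers (adjusted p = 0.0526). Without wild-type chow library 2 the averaged call was lost, with an adjusted p of 0.0526 as well.

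Thrb encodes the thyroid hormone receptor beta, through which thyroid hormone acts on hepatic lipogenesis, cholesterol and deiodinase genes. It had 52.3 and 46.7 CPM in het-labelled HFD and 37.3 and 31.0 CPM in het-labelled chow livers, and 45.6 and 41.9 CPM in wild-type HFD and 38.6 and 41.2 CPM in wild-type chow livers. Again all HFD libraries were above all chow libraries, by a narrow gap in wild-type livers. The averaged log2 change was 0.33 ± 0.08 (SE; adjusted p = 0.0331, edgeR). It was called in 5 of 12 alternative analyses, and leaving out any library but het-labelled HFD library 8 and het-labelled chow library 3 ended the call (adjusted p up to 0.148). Its paralog Thra had a log2 change of -0.14 and did not pass.

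Nr2c1 and Nr2c2 encode the orphan receptors TR2 and TR4, which bind direct repeats of the receptor half-site as homodimers or as a heterodimer, and TR4 is known in mice as a lipid-responsive receptor. Nr2c1 had 8.05 and 11.2 CPM in het-labelled HFD and 12.5 and 15.4 CPM in het-labelled chow livers, and 11.8 and 12.0 CPM in wild-type HFD and 18.7 and 18.3 CPM in wild-type chow livers. Nr2c2 had 11.4 and 9.25 CPM in het-labelled HFD and 14.6 and 13.0 CPM in het-labelled chow livers, and 11.1 and 9.19 CPM in wild-type HFD and 17.6 and 13.5 CPM in wild-type chow livers. For both genes every HFD library was below every chow library, and in wild-type livers the Nr2c1 groups lay far apart relative to the spread within them.

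The ratio of HFD to chow was 0.665 for Nr2c1 (95% interval 0.552 to 0.800; log2 change -0.59 ± 0.12 SE; adjusted p = 0.0159, edgeR). For Nr2c2 it was 0.701 (0.577 to 0.851; log2 change -0.51 ± 0.12 SE; adjusted p = 0.0340). Within wild-type livers the log2 changes were -0.63 for Nr2c1 (adjusted p = 0.0646) and -0.61 for Nr2c2 (adjusted p = 0.0882), and within het-labelled livers they were -0.55 (adjusted p = 0.133) and -0.41 (adjusted p = 0.261). Leaving out wild-type HFD library 5 or 6 or wild-type chow library 1 or 2 ended the averaged call of Nr2c1, with adjusted p up to 0.0627. For Nr2c2, leaving out het-labelled HFD library 8, het-labelled chow library 3, wild-type HFD library 6 or wild-type chow library 1 did so, with adjusted p up to 0.117. Mrps25, the mitochondrial ribosomal gene that overlaps Nr2c2, had an averaged log2 change of 0.22 (adjusted p = 0.185), opposite in sign to that of Nr2c2.

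**Figure D2:**
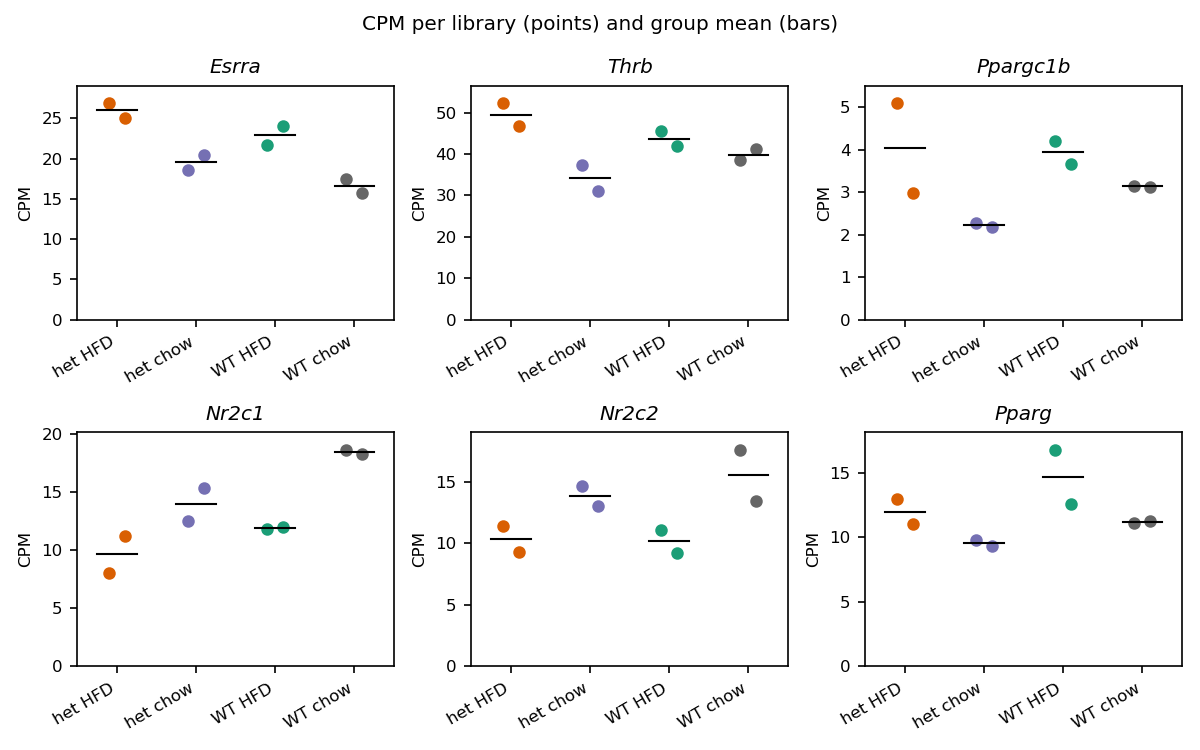
CPM of 6 members in each library (points) with the group mean (bar), het-labelled HFD, het-labelled chow, wild-type HFD and wild-type chow from left to right. The HFD libraries of Esrra and Thrb all lie above the chow libraries and those of Nr2c1 and Nr2c2 all below, while Ppargc1b and Pparg show an overlap of the pooled diets.

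The stretches upstream of the 4 genes called for diet are shown because these genes moved with diet in 2 opposite directions. Each is the 250 bases before the annotated start from RefSeq (GRCm38.p6, not the build of the counts), written 5′ to 3′ on the strand of the gene. Thrb has 2 such windows, at 2 starts. Capitals mark GGGCGG or its reverse complement CCGCCC, the GC box bound by Sp1-type factors, and CACGTG, an E-box bound by bHLH factors including those of the clock.
Esrra, chr19:6921809-6922058, minus strand: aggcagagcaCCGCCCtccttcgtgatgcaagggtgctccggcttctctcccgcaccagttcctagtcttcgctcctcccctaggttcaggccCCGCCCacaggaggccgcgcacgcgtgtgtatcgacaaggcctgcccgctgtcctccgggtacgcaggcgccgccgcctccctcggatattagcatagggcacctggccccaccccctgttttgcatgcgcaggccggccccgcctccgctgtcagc
Thrb, window 1, chr14:17660710-17660959, plus strand: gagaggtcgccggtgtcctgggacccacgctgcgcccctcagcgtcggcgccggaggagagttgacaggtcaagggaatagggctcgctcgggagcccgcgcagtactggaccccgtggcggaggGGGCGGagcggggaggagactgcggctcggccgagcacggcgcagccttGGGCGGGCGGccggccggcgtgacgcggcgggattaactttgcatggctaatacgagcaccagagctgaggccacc
Thrb, window 2, chr14:17981394-17981643, plus strand: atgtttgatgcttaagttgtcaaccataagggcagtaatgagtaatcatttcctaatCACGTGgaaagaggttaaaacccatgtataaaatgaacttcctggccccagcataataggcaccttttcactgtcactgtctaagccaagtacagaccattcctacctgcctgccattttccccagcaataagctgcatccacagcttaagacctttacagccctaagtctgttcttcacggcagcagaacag
Nr2c1, chr10:94147681-94147930, plus strand: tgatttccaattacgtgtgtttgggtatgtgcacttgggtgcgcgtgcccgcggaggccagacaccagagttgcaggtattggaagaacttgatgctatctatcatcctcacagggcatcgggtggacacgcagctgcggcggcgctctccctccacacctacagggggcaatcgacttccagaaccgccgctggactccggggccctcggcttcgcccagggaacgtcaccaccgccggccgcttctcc
Nr2c2, chr6:92092183-92092432, plus strand: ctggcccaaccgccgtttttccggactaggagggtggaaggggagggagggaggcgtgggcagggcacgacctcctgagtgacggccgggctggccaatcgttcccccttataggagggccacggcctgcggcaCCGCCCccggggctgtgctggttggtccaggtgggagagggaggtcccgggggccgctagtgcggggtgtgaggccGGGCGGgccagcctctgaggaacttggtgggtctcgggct

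The windows of Esrra and Nr2c2 and window 1 of Thrb hold the GC box, in window 1 of Thrb also as a pair of overlapping copies. The E-box occurs in window 2 of Thrb alone among these 5, and the window of Nr2c1 holds neither motif. Over both strands, 32.7% of 32817 mouse promoter windows of the same length hold GGGCGG and 6.02% hold CACGTG. Windows were found for 27 members, 43 windows in all, some of which overlap within a gene. Of these 43 windows 23 (53.5%) hold GGGCGG and 2 (4.65%) hold CACGTG, 1 each of Rara and Thrb. The receptor motifs AAGGTCA (the extended half-site of monomeric receptors such as ERR alpha) and direct repeats of AGGTCA with 1 or 4 bases of any kind between the copies (which AAGGTCA can overlap) were searched in the same way. AAGGTCA was in 2 of the 43 windows (4.65%), 1 each of Rxra and Rxrg, against 4.08% of all windows. The direct repeats were in 0 of the 43 windows, against 0.0335% and 0.0152% of all windows. A match shows letters in these windows, and no match says nothing of binding elsewhere.

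The other members of the averaged diet comparison did not pass. Among the lipid-sensing receptors, Pparg, which drives lipid storage genes in fat and in fatty liver, had 13.0 and 11 CPM in het-labelled HFD and 9.78 and 9.32 CPM in het-labelled chow livers, and 16.8 and 12.6 CPM in wild-type HFD and 11.1 and 11.3 CPM in wild-type chow livers. Within each genotype the HFD libraries were above the chow libraries, but het-labelled HFD library 8 was below both wild-type chow libraries. The averaged log2 change was 0.36 (95% interval 0.11 to 0.62; adjusted p = 0.0812, edgeR), and without wild-type HFD library 6 it was 0.46 and passed (adjusted p = 0.0450). Its isoforms share a row and cannot be told apart here. Ppard, the widely expressed PPAR delta, had 17.0 and 8.78 CPM in the 2 het-labelled chow libraries and 9.06 and 17.4 CPM in the 2 wild-type HFD libraries, a spread within groups as wide as any difference between them.

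Among the retinoid receptors, Rara had an averaged log2 change of 0.32 (adjusted p = 0.114, edgeR) and Rxrg one of 0.38 (adjusted p = 0.164). Rarb, whose own gene is a classical retinoic acid target, had an averaged change of 0.16. The abundant Rxra had 366 and 420 CPM in het-labelled HFD and 418 and 317 CPM in het-labelled chow livers, and 318 and 331 CPM in wild-type HFD and 345 and 289 CPM in wild-type chow livers. These groups overlapped, and the averaged 95% interval of Rxra was -0.17 to 0.30 on the log2 scale. Rxrb, the other broadly expressed RXR, had an averaged change of 0.03.

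For the steroid and remaining orphan receptors the averaged changes lay between -0.32 for Esr1 and 0.73 for Nr2f1, neither of which passed. Nr3c1 had 84.8 and 87.5 CPM in het-labelled HFD and 85.8 and 72.9 CPM in het-labelled chow livers, and 88.3 and 84.1 CPM in wild-type HFD and 82.0 and 77.0 CPM in wild-type chow livers. Its averaged interval was -0.04 to 0.27. Nr5a2, the receptor LRH-1 that supports bile acid and reverse cholesterol transport genes, had an averaged change of 0.03 with an interval of -0.18 to 0.24. Nr3c2, the mineralocorticoid receptor, Rora, a constitutive activator of clock and lipid genes, and the COUP-TF genes Nr2f2 and Nr2f6 had changes of -0.06, -0.08, 0.15 and 0.15. Among the receptors tested the interval of 19 of 20 (95%) lay within 1 log2 unit of no change, against 87.6% of all tested rows. A change of 2-fold in either direction was outside these 19 intervals, and the exception was Nr2f1.

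Among the coregulators, Ppargc1b, a coactivator of ERR alpha and of the lipogenic factor SREBP-1, had 5.10 and 2.99 CPM in het-labelled HFD and 2.27 and 2.18 CPM in het-labelled chow livers, and 4.21 and 3.66 CPM in wild-type HFD and 3.15 and 3.13 CPM in wild-type chow livers. The HFD libraries were above the chow libraries within each genotype, and het-labelled HFD library 8 was below the wild-type chow libraries. The averaged log2 change of 0.60 did not pass (95% interval 0.18 to 1.03; adjusted p = 0.0800, edgeR), and without het-labelled HFD library 8 it was 0.76 and passed (adjusted p = 0.0178). Ppargc1a, the fasting- and cold-induced PGC-1 form, had 4.77 and 8.82 CPM in het-labelled HFD and 4.39 and 6.19 CPM in het-labelled chow livers, and 6.87 and 6.23 CPM in wild-type HFD and 7.5 and 11 CPM in wild-type chow livers. Its groups overlapped in the pooled comparison, with an averaged change of -0.08.

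Ncor1, the corepressor that carries HDAC3 to unliganded receptors, had 99.5 and 96.9 CPM in het-labelled HFD and 120 and 110 CPM in het-labelled chow livers, and 99.8 and 96.8 CPM in wild-type HFD and 108 and 102 CPM in wild-type chow livers. Every HFD library was below every chow library, but the log2 change of -0.16 did not pass (adjusted p = 0.122, edgeR). With Ncor1, 5 of the 31 members had diets that did not overlap, 16.1% against 13.1% of all tested rows. Nrip1, the corepressor RIP140, had an averaged change of -0.30 with 10.9 CPM in 1 het-labelled chow library and between 5.48 and 7.81 CPM in the other libraries. For the acetyltransferases Crebbp and Ep300, the Mediator subunit Med1 and the p160 genes Ncoa1, Ncoa2 and Ncoa3, averaged changes lay between -0.15 for Ncoa3 and 0.07 for Ncoa1, and Ncoa4 had 0.15. Without het-labelled chow library 4 the log2 change of Ncoa3 was -0.32, with het-labelled chow library 3 alone in its group. That library had 37.9 CPM of Ncoa3, against 22.4 to 29.4 CPM in the other libraries.

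**Figure D3:**
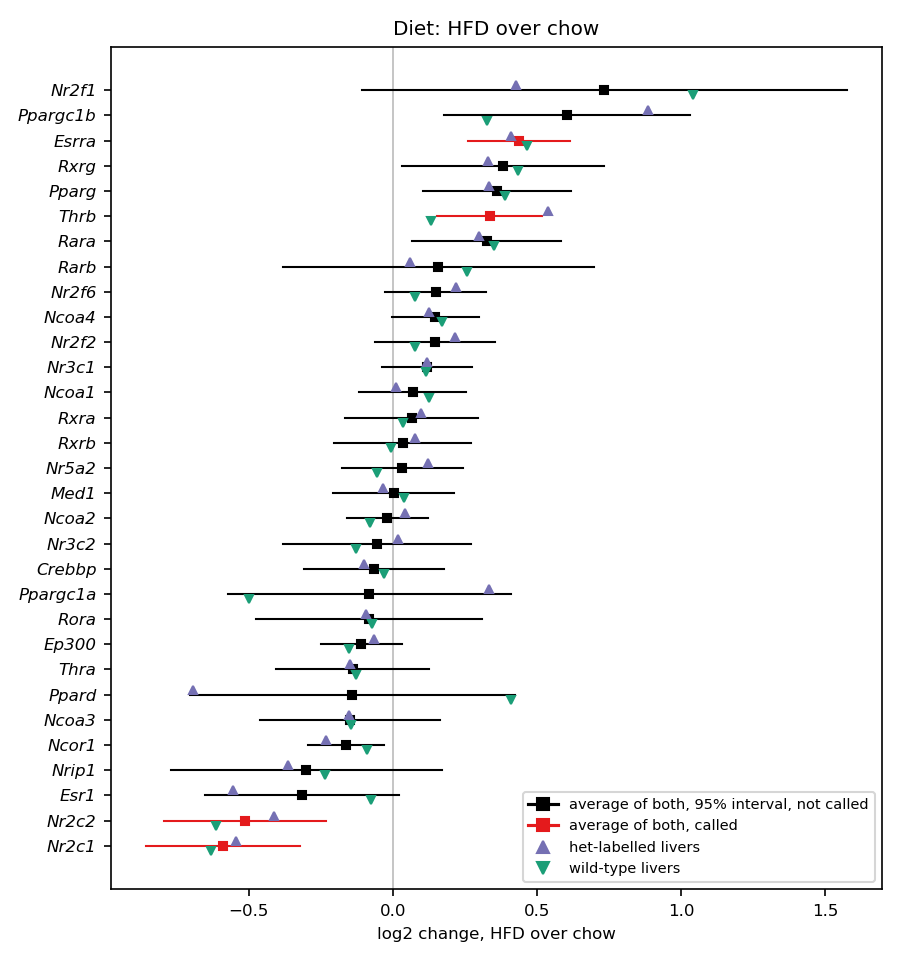
Log2 change on HFD over chow for 31 members, ordered by the average of both genotypes (squares, bars are 95% intervals, red where called). Upward triangles give het-labelled and downward triangles wild-type livers. Nr2c1 and Nr2c2 lie lowest. The bars of 29 of 31 members (93.5%) stay within 1 log2 unit of 0, against 87.6% of all tested rows.

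Within genotypes fewer members were called. In het-labelled livers 1 of 31 passed, against 3.02% of all tested rows: Thrb, with a log2 change of 0.54 ± 0.11 (SE; adjusted p = 0.0439, edgeR) and a ratio of 1.45. This call was kept in 4 of 12 alternatives and ended when het-labelled HFD library 7 or 8, het-labelled chow library 4 or any wild-type library was left out (adjusted p up to 0.174). In wild-type livers 0 of 31 members were called by edgeR and 0 by DESeq2, against 4.59% of all rows, and 4 (12.9%, against 19.1% of all rows) had an unadjusted p under 0.05: Esrra, Nr2c1, Nr2c2 and Pparg. When the fit used the wild-type libraries alone, Esrra, Nr2c1 and Nr2c2 were called, and without a filter on low counts Nr2c1 and Nr2c2 were. The 2 diet effects share no library, and 24 of 31 members (77.4%) had the same sign in both, against 64.0% of all rows. Across the 31 members Pearson's r between the 2 log2 changes was 0.52 and Spearman's rho 0.62, against 0.54 and 0.39 across all rows, and genes are not independent replicates.

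The interaction term asks whether the diet effect differed between genotypes. It was called for 0 of 31 members and 0% of all rows by edgeR, with 1 member and 900 rows at an unadjusted p under 0.05, while DESeq2 called 0 members and 29 rows. The member was Thrb, whose diet effect was 0.54 in het-labelled and 0.13 in wild-type livers (difference 0.40, 95% interval 0.04 to 0.77; adjusted p = 0.690, edgeR). For Ppard the effects were -0.69 and 0.41 (difference -1.10, adjusted p = 0.693), and for Ppargc1a they were 0.33 and -0.50 (difference 0.83, adjusted p = 0.702). The intervals of 24 of 31 members (77.4%) stayed within 1 log2 unit of no difference, against 68.8% of all rows.

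The genotype comparison asked which members differ between het-labelled and wild-type livers. Averaged over both diets, 0 of 31 members were called by edgeR and 0 by DESeq2, against 3.24% of all rows, and 8 (25.8%, against 20.4% of all rows) had an unadjusted p under 0.05: Ep300, Nr2c1, Nr2f2, Esrra, Rxrg, Rara, Rxra and Pparg. On HFD 0 were called by either tool, against 0.445% of all rows, and on chow 0 against 0.516%, each with 2 members (6.45%) at an unadjusted p under 0.05, against 13.8% of all rows on HFD and 15.3% on chow. The averaged intervals of 30 of 31 members (96.8%) lay within 1 log2 unit of no difference, against 88.5% of all rows. The exception was Nr2f1. Without het-labelled chow library 4 the log2 difference of Ncoa3 was 0.44. Het-labelled chow library 3 then stands alone in its group, and its 37.9 CPM of Ncoa3 was the highest of all libraries.

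Ep300, a histone acetyltransferase that acts on enhancers and is recruited by many receptors, was the single member whose genotypes did not overlap, 3.23% of the members against 8.35% of all rows. It had 40.7 and 41.9 CPM in het-labelled HFD and 33.1 and 37.2 CPM in wild-type HFD livers, and 43.6 and 42.9 CPM in het-labelled chow and 38.8 and 39.4 CPM in wild-type chow livers. The averaged log2 difference of 0.19 did not pass (95% interval 0.05 to 0.33; adjusted p = 0.132, edgeR). Nr2f2, the COUP-TF II receptor of vessels, stellate cells and hepatocytes, had 32 and 28.5 CPM in het-labelled HFD and 23.7 and 24.2 CPM in wild-type HFD livers, and 23.2 and 29.1 CPM in het-labelled chow and 21.2 and 24.2 CPM in wild-type chow livers. Its genotypes were apart on HFD and overlapped on chow, and the averaged difference of 0.27 did not pass (adjusted p = 0.143). By size, the negative averaged differences were led by Rxrg at -0.40 (adjusted p = 0.186), Ppargc1a at -0.39 (adjusted p = 0.356), Rarb at -0.37 (adjusted p = 0.426) and Nr2c1 at -0.36 (adjusted p = 0.133), and none passed.

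Ppargc1a had the largest negative difference on chow, -0.80, with 4.39 and 6.19 CPM in het-labelled and 7.5 and 11 CPM in wild-type livers (adjusted p = 0.268, edgeR). On HFD its difference was 0.03, with 4.77 and 8.82 CPM in het-labelled and 6.87 and 6.23 CPM in wild-type livers. The groups were apart on chow and overlapped on HFD. The genotype effects on the 2 diets share no library, and 20 of 31 members (64.5%) had the same sign in both, against 61.5% of all rows.

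**Figure D4:**
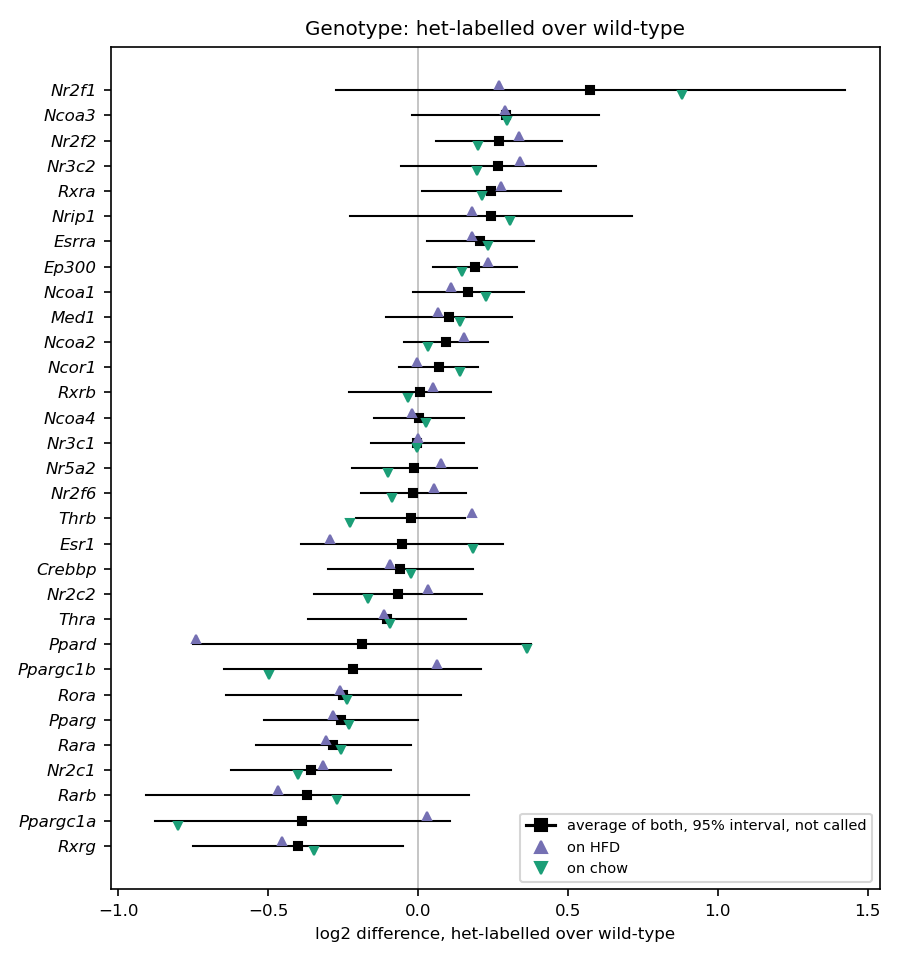
Log2 difference, het-labelled over wild-type, for 31 members, ordered by the average of both diets (squares with 95% intervals). Upward triangles give HFD and downward triangles chow; no member is called, and the values of Ppargc1a are -0.80 on chow and 0.03 on HFD.

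Cell type markers moved with the groups beside these values. The summed CPM of 10 Kupffer cell markers was between 168 and 269 in het-labelled HFD, 399 and 491 in het-labelled chow, 165 and 168 in wild-type HFD and 163 and 178 in wild-type chow livers. Of the 10, 6 were lower on HFD averaged over genotypes and 7 were higher in het-labelled livers averaged over diets. For diet all 10 were lower at an unadjusted p under 0.05, and DESeq2 called 8 lower. The edgeR counts hung on single libraries, and rose as well as fell when 1 library was left out. The diet count was 1 without het-labelled chow library 3 or wild-type HFD library 6, and 0 without wild-type HFD library 5 or wild-type chow library 1 or 2. The genotype count was 2 without het-labelled chow library 3 or wild-type HFD library 5, 1 without wild-type HFD library 6 or wild-type chow library 1, and 0 without wild-type chow library 2. Within genotypes, 0 of the 10 Kupffer markers were called for diet in wild-type livers (median log2 change -0.14). In het-labelled livers 7 were lower on HFD (median -1.09). By genotype 0 were called on HFD, and 5 were higher in het-labelled livers on chow. These counts too hung on single libraries. Blood genes summed to between 351 and 371 CPM in het-labelled HFD and 240 and 253 in het-labelled chow livers. In wild-type livers they summed to between 655 and 830 on HFD and 258 and 320 on chow, and 2 of 4 were higher on HFD. Early-response genes reached 750 CPM in het-labelled HFD library 8, against 49.3 to 143 in the other libraries, and 1 of 8 was higher on HFD, a count of 5 without het-labelled HFD library 7. Among hepatocyte markers 3 of 9 were lower on HFD, a count that fell without wild-type chow library 1 or 2. DESeq2 called 5 lower and 0 higher, and 6 were lower and 0 higher at an unadjusted p under 0.05. The 9 summed to between 79416 and 81071 CPM in het-labelled HFD and 91549 and 96756 in het-labelled chow livers. In wild-type livers they summed to between 79957 and 80647 on HFD and 92631 and 99227 on chow. Among stellate markers 1 of 10 was lower, 0 without wild-type chow library 1 and 2 without het-labelled chow library 4. Of 10 endothelial, 5 cholangiocyte and 4 lymphocyte markers 0 were called for diet by edgeR or DESeq2, and 3 of the lymphocyte markers had an unadjusted p under 0.05. Of the adipocyte markers only Cfd passed the filter, and it was higher on HFD, while the defining markers Adipoq and Lep stood at 0.213 CPM or less. The part of these cells in the members' values was not tested.

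The rest of the receptor family was read from lists of other receptors and coregulators. Of 18 other nuclear receptors tested, 5 were higher and 0 lower on HFD averaged over genotypes (edgeR; 1 lower at an unadjusted p under 0.05, 0 by DESeq2). Nr4a2, an immediate-early orphan receptor, rose most (log2 change 2.64; adjusted p = 0.00289, edgeR), followed in significance by the heme receptors of the clock, Nr1d2 (0.68; adjusted p = 0.0119) and Nr1d1 (0.90; adjusted p = 0.0119), and by Ppara, the receptor of fatty acid oxidation (0.77; adjusted p = 0.0208). This count was 3 without het-labelled HFD library 7 or wild-type chow library 2, and 2 without wild-type chow library 1. Of 27 other coregulators 4 were higher, among them Nrbf2 (0.38; adjusted p = 0.0143), Cited2 (0.41; adjusted p = 0.0225) and Smarca4, the BRG1 remodeller (0.29; adjusted p = 0.0365), and DESeq2 called 2. The count of 4 was 2 without het-labelled chow library 4, 1 without het-labelled HFD library 7, wild-type HFD library 6 or wild-type chow library 2, and 0 without wild-type HFD library 5 or wild-type chow library 1. Of 30 other Mediator subunits, the complex of MED1, 0 were called by edgeR or DESeq2, with 3 higher and 4 lower at an unadjusted p under 0.05. For genotype averaged over diets, Nr1i2, the xenobiotic receptor PXR, was lower (-0.49; adjusted p = 0.0325), a call lost without any library but het-labelled HFD library 7 and het-labelled chow library 4.

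Clock genes moved with the diet groups: 12 of 18 were higher and 2 lower on HFD averaged over genotypes, led by Bhlhe40 (log2 change 2.07; adjusted p = 0.000371, edgeR), Per2 (2.06; adjusted p = 0.000607) and Tef (1.40; adjusted p = 0.00135). The higher count was 5 without wild-type chow library 1 and 7 without wild-type chow library 2. The lower count was 1 without either het-labelled chow library, and 0 without het-labelled HFD library 7, wild-type HFD library 5 or wild-type chow library 1 or 2. Nr1d1 and Nr1d2 are among the genes that stand both in this list and in that of other receptors, and the time of tissue collection is not given in the labels. Of 14 fasting-response genes 4 were higher and 1 lower. The higher count was 1 without het-labelled HFD library 7 or wild-type chow library 2, and 2 without het-labelled chow library 4 or either wild-type HFD library. The lower count was 3 without het-labelled HFD library 8, 2 without het-labelled chow library 3, and 0 without wild-type HFD library 5 or wild-type chow library 1 or 2.

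Genes known as targets of the members were read beside them, by lists drawn from general knowledge of other tissues and studies. Of 11 thyroid hormone receptor targets 5 were higher and 0 lower on HFD averaged over genotypes (edgeR; 0 lower at an unadjusted p under 0.05 and 0 by DESeq2). Dio1, the deiodinase that responds to hepatic THRB, had 151 and 143 CPM in het-labelled HFD and 103 and 93.2 CPM in het-labelled chow livers, and 167 and 163 CPM in wild-type HFD and 103 and 112 CPM in wild-type chow livers (log2 change 0.60; adjusted p = 0.000941, edgeR). Thrsp, the lipogenic Spot14 gene, had 363 and 328 CPM in het-labelled HFD and 54.9 and 30.7 CPM in het-labelled chow livers, and 712 and 656 CPM in wild-type HFD and 66.0 and 177 CPM in wild-type chow livers (log2 change 2.75; adjusted p = 0.00105). Both rose on HFD in each genotype, with no overlap of diets. In het-labelled livers the call of Dio1 was lost without het-labelled HFD library 7. In wild-type livers it was lost without wild-type HFD library 5 or wild-type chow library 1 or 2, and that of Thrsp without wild-type HFD library 5 or 6. Gpd2, the mitochondrial glycerol phosphate dehydrogenase, rose too (1.09; adjusted p = 0.000783). The median log2 change of the list was 0.60, against 0.01 for all rows.

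Hr encodes the corepressor hairless, in brain a thyroid hormone target. It had 0.376 and 0.427 CPM in het-labelled HFD and 4.44 and 2.90 CPM in wild-type HFD livers. On chow it had 0.142 and 0.340 CPM in het-labelled and 0.882 and 0.870 CPM in wild-type livers. The value of het-labelled chow library 3, 0.142 CPM, was under the 0.213 CPM that 3 counts equal there. The other het-labelled values were near that limit, so the size of the differences below is uncertain. The het-labelled libraries were all below the wild-type libraries, and on HFD the log2 difference was -3.18 (adjusted p = 0.0222, edgeR). Without het-labelled HFD library 8, wild-type HFD library 5 or wild-type chow library 1 or 2 that call was lost. Thrb had no such difference, with 0.18 on HFD (adjusted p = 0.532).

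Of 15 PPARG targets tested 6 were higher and 0 lower on HFD averaged over genotypes by edgeR, while DESeq2 called 2 lower and 5 were lower at an unadjusted p under 0.05. In wild-type livers alone 6 were higher too, but 2 without wild-type chow library 1 and 1 without wild-type chow library 2. In het-labelled livers 1 was higher: Mgll, a lipase of stored triglyceride breakdown, had 230 and 211 CPM in HFD and 111 and 94.3 CPM in chow livers (log2 change 1.10; adjusted p = 0.00546, edgeR). In wild-type livers Mgll had 306 and 247 CPM on HFD and 95.3 and 95 CPM on chow (1.54; adjusted p = 0.000628). Cidec, which enlarges lipid droplets, had 3.43 and 1.99 CPM in het-labelled HFD and 28.7 and 13.7 CPM in wild-type HFD livers, and 1.13 and 2.31 CPM in het-labelled chow and 2.52 and 3.48 CPM in wild-type chow livers. It was lower in het-labelled livers on HFD (-2.93; adjusted p = 0.0317), as were 5 of the 15 targets in all. That count was 3 without wild-type HFD library 6, 1 without wild-type HFD library 5, and 0 without het-labelled HFD library 8 or wild-type chow library 1 or 2. Pparg itself had a difference of -0.28 there (95% interval -0.64 to 0.07; adjusted p = 0.468).

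**Figure D5:**
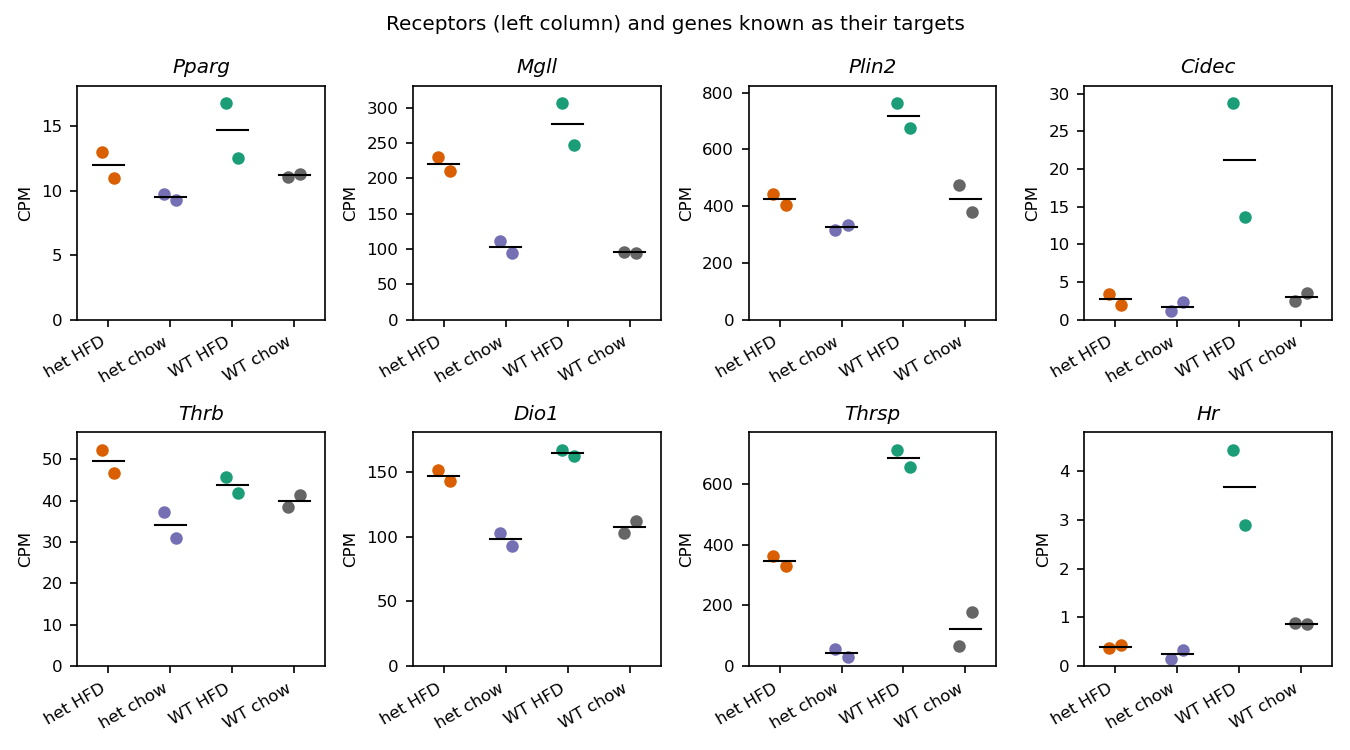
CPM per library (points) and group mean (bars) of Pparg and Thrb, in the left column, beside genes known as their targets, het-labelled HFD, het-labelled chow, wild-type HFD and wild-type chow from left to right. Cidec and Hr are high in wild-type HFD livers alone; the highest library was 1.80 times the lowest for Pparg and 1.69 times for Thrb.

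Further target lists were read for diet averaged over genotypes. Of 14 targets of PGC-1 and ERR alpha, 1 was higher and 0 lower (DESeq2 also 1 and 0; 3 higher and 1 lower at an unadjusted p under 0.05): Acadm, the medium-chain acyl-CoA dehydrogenase (log2 change 0.31; adjusted p = 0.0127, edgeR), and the median change of the list was 0.08. That call was lost without wild-type HFD library 5 or wild-type chow library 1 or 2. Of 15 glucocorticoid receptor targets 2 were higher and 4 lower, led by the metallothionein Mt1 (-2.80, adjusted p = 0.00748, edgeR) and by Dusp1 (1.39, adjusted p = 0.00883, edgeR). The 2 higher genes were Dusp1 and Per1. Dusp1 is also counted among the early-response genes and Per1 among the clock genes. The higher count was 1 without het-labelled chow library 3 or wild-type chow library 1 or 2, and the lower count 2 without wild-type chow library 1. Of 9 NR5A2 targets 3 were higher and 1 lower, among them the sterol transporter genes Abcg5 (1.68; adjusted p = 0.00191) and Abcg8 (1.29; adjusted p = 0.00590), and Apom (-0.80; adjusted p = 0.000607). The lower count was 2 without het-labelled chow library 3.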

How the data were processed

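Liver RNA of 8 libraries was measured by RNA-seq. Per the labels' protocols, total RNA was purified (RNeasy), made into TruSeq libraries and read on an Illumina HiSeq instrument. The deposited table holds the authors' whole-number read counts per gene, not normalized. The submitters' processing notes name TopHat2, HTSeq, CASAVA and DESeq with build mm9. Which versions and settings were chosen, and whether counting used strand, is not given in the sources used here. Reads of near-identical or overlapping genes are therefore uncertain.

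Groups and library numbers come from the titles. The fit used edgeR 4.0.16 (R 4.3.3): filterByExpr kept 12593 rows, TMM factors scaled the libraries, and the quasi-likelihood test took the 8 libraries together with 1 mean per group (4 residual and 4.77 prior degrees of freedom). The 7 comparisons were diet in each genotype, genotype on each diet, their interaction, diet averaged over genotypes and genotype averaged over diets. Calls were 2-sided, at a Benjamini-Hochberg p below 0.05 across the 12593 rows. SE and 95% intervals were calculated back from the test statistic. CPM values use the TMM factors. Exon lengths and overlaps come from GENCODE M21 (GRCm38). Alternatives were DESeq2 1.42.0, RLE factors, no low-count filter, fitting only the groups compared, an additive model, and leaving out each library. The model was also run on simulated counts drawn with the spread it had itself estimated. That run cannot check this spread or the calls made from 2 libraries per group. These intervals include the spread between libraries, whereas the limit of 3 counts covers counting error only.

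The members and the lists (other receptors, other coregulators, other Mediator subunits, 6 lists of receptor targets, clock genes, fasting response, and markers of 9 cell types or states) were chosen with earlier results of these data known, so no pattern of a list is independent support. By rule all members are accounted for, those called are given per library, and up to 4 called genes of a list are named by smallest adjusted p; Nr2c2-overlapping Mrps25, Hr, Cidec, Thrsp and other genes beyond it were chosen after their values were seen. The result of 1 list of receptor targets is not reported here.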

Additional observations from a re-analysis of the deposited data

Results flagged for a closer look

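One member was picked out because its groups moved in opposite ways: Thrb was higher in both het-labelled than in both wild-type libraries on HFD and lower in both on chow. It had 52.3 and 46.7 CPM in het-labelled HFD against 45.6 and 41.9 CPM in wild-type HFD livers, and 37.3 and 31.0 CPM in het-labelled chow against 38.6 and 41.2 CPM in wild-type chow livers. The interaction of genotype and diet was 0.40 on the log2 scale and did not pass (adjusted p = 0.690 over 12593 rows, edgeR). The groups hold 2 libraries each, too few for a test of single libraries that stand apart. Separation of 2 libraries from 2 others was common. Between genotypes it held for 17 of 31 members on HFD and 9 on chow. Between diets it held for 18 members in wild-type and 11 in het-labelled livers. The share over all rows is not given, so such a separation does not set a member apart.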

How the results depend on the processing

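Of 2542 values of single members under the alternatives, 2502 kept their side of the threshold, 24 no longer passed and 16 newly passed. Among values that passed in either fit 0 reversed direction, and the direction of values that passed in neither was not compared. Most of the 2542 values belong to results not called in the main fit, so the number kept says little of the calls. All 24 that no longer passed belong to the diet calls. Of 12 alternatives each, the averaged calls were kept in 11 for Esrra, 8 for Nr2c1, 8 for Nr2c2 and 5 for Thrb. The call of Thrb in het-labelled livers was kept in 4 of 12. The cause of the changes was not tested. No paired analysis was possible because the library numbers 1 to 8 are not shared between groups. Members called for diet in wild-type livers numbered 2 with no filter on low counts and 3 in a fit of only the groups compared, which gave 0 in het-labelled livers. That fit, with fewer libraries, called 1351 rows for diet in wild-type and 105 in het-labelled livers and 26 for genotype on HFD. With no filter 680 rows were called for diet in het-labelled livers, 258 for genotype on HFD, 314 for genotype on chow, 760 for averaged genotype and 8 for the interaction. DESeq2 called 241 rows for genotype on HFD, 227 on chow and 29 for the interaction.

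When each library was left out in turn, called members ranged from 0 to 2 for diet in wild-type livers, 0 to 1 in het-labelled livers, 1 to 4 averaged (1 without wild-type chow library 1 or 2) and 0 to 1 for averaged genotype, and were 0 throughout for genotype on HFD, genotype on chow and the interaction. Called rows ranged from 98 to 896 for diet in wild-type livers, 144 to 293 in het-labelled livers, 12 to 177 for genotype on HFD, 1 to 268 on chow, 0 to 14 for the interaction, 546 to 1388 for averaged diet and 23 to 722 for averaged genotype. The alternatives were also run on the list counts, which was chosen after seeing the data. Vdr had 3 counts in all, and whether depth or a low level in liver limits it was not tested. What limits the other members was not tested.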
